A study of Mus musculus with 31 samples.

Results

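The genes described here are those of the mouse major histocompatibility complex (MHC) and its antigen-processing machinery. They were taken from the deposited count table as every symbol starting with H2- plus B2m, Tap1, Tap2, Tapbp, Psmb8, Psmb9, Psmb10, Nlrc5, Ciita, Cd74, Cd40, Cd80 and Cd86, which gave 57 of the 25239 symbols. By role, 34 belong to class I (H2-K1, H2-D1 and H2-L as classical heavy chains, B2m as the light chain, and 30 other genes), 11 to class II, 6 to class I processing, 2 are transactivators and 3 are costimulatory. GENCODE M21 types H2-K2 as a transcribed unprocessed pseudogene, H2-T-ps as an unprocessed pseudogene, and H2-Q5, H2-T10 and H2-Bl as polymorphic pseudogenes. H2-Ke6 carries the H2- prefix through its position alone and encodes a steroid dehydrogenase. A further 5 symbols (H2-M1, H2-M9, H2-M11, H2-Q9 and H2-T9) had no count in any library, H2-Q7 and H2-Q8 had at most 2 counts in a library, and the class II gene H2-Ea had 19 counts over all libraries. After the filter on low counts, 40 of the 57 genes were tested in hepatocyte libraries, 44 in stellate-labelled libraries and 43 in the fit of all libraries.

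Male and female C57BL/6J mice ate chow or an FPC diet (rich in fructose, palmitate and cholesterol, and labelled NASH in the sample names) for 16 weeks, and no age is given in the sources used here. RNA of 2 liver preparations was sequenced: hepatocytes, pelleted at low speed from a protease and collagenase digest, and hepatic stellate cells, taken from the same digest's supernatant by density gradient. The 31 libraries fall into 8 groups of preparation, sex and diet, with 4 libraries in each except the stellate-labelled females on chow, which have 3. The comparison of interest is FPC against chow within each preparation, in both sexes, and the design text describes the mice of a group as independent.

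MHC class I molecules pair a heavy chain with beta-2-microglobulin (B2m) and show peptides cut by the immunoproteasome (Psmb8, Psmb9, Psmb10), carried into the endoplasmic reticulum by Tap1 and Tap2 and loaded with the help of Tapbp. Nearly all nucleated cells, hepatocytes included, carry them, and NLRC5 drives their transcription. Class II molecules (H2-Aa with H2-Ab1, H2-Eb1 with H2-Ea) are held mainly by B cells, dendritic cells and macrophages. In these libraries H2-Ea, the partner of H2-Eb1, had only 19 counts in all. Cd74 is the invariant chain of class II molecules, H2-DM and H2-DO edit their peptides, and CIITA switches them on. In liver, Kupffer cells, dendritic cells and B cells are the usual class II carriers, and stellate cells have been described as able to present antigen.

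The 2 transactivators bind no DNA themselves and act through factors that sit on paired elements, the X and Y boxes, just before class I and class II genes. Class I promoters also carry a kappa B element and an interferon-response element. Of the 57 genes, 39 had a promoter in the RefSeq table (build GRCm38.p6), including 15 tested class I, 8 tested class II and 5 tested processing genes, and the 250 bases before the start were searched on both strands. The promoters of 4 class I heavy-chain genes are shown because they contrast 3 widely expressed genes with H2-Q10, the gene that differed most between preparations. H2-K1 is chr17:34000348-34000460 (minus strand), H2-Q4 chr17:35379441-35379594, H2-Q6 chr17:35424675-35424827 and H2-Q10 chr17:35469911-35470066 (plus strand). Capitals mark GGGATTCCC (kappa B), TTTCACTTC (the interferon-response element GAAGTGAAA read on the other strand), TGATGA or TGACG (the X2 part of the X box), ATTGG (Y box) and TATAAA. The letters are:
H2-K1: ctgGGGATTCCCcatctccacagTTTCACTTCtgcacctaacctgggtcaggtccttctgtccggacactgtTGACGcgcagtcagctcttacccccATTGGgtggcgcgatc
H2-Q4: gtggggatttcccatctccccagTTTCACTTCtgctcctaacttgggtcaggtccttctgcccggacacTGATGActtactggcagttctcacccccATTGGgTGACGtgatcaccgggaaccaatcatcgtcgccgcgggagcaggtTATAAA
H2-Q6: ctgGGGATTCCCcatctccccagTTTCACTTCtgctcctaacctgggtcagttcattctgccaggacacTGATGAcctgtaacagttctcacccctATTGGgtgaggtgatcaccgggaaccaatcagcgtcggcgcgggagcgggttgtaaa
H2-Q10: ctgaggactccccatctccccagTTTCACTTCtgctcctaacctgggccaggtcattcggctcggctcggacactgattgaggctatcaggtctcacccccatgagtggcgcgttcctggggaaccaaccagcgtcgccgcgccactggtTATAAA

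The letters GGGATTCCC occurred in 3 of the 15 class I promoters (H2-K1, H2-D1 and H2-Q6), against 0.352% of the 27025 genes in the table. GAAGTGAAA occurred in 6 of the 15 (H2-D1, H2-K1, H2-M3, H2-Q10, H2-Q4 and H2-Q6) and in 0.477% of all genes. TGATGA or TGACG followed 10 to 30 bases later by ATTGG on the same strand occurred in 7 of the 15 (B2m, H2-D1, H2-K1, H2-M10.1, H2-M3, H2-Q4 and H2-Q6) and in 0.981% of all genes. H2-Q10 held the interferon-response letters and none of the other 3 within this window. The motifs can overlap one another, as TGATGA and TGACG do, and a match describes letters, not binding.

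For class II, the 60 bases around the X and Y boxes are shown for genes of both roles, surface dimers and peptide editing, because genes of both roles are compared between preparations below. H2-Aa is chr17:34287864-34287923 (minus strand), H2-Eb1 chr17:34305756-34305815, H2-Eb2 chr17:34325523-34325582, H2-DMb2 chr17:34145107-34145166 and H2-Ob chr17:34238796-34238855 (plus strand), with capitals for the X2 and Y letters:
H2-Aa: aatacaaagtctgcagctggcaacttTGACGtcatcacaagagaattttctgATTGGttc
H2-Eb1: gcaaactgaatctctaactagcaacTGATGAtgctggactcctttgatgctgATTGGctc
H2-Eb2: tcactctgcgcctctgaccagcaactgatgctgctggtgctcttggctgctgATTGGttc
H2-DMb2: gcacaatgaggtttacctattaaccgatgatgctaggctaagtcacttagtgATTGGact
H2-Ob: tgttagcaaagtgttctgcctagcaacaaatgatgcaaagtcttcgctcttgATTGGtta

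ATTGG was present in 8 of the 8 class II promoters, against 37.5% of all genes. The paired X2 and Y letters were found in 3 of the 8 (H2-Aa, H2-DMb1 and H2-Eb1). None of the 5 processing promoters held the pair, and 3 of the 5 held ATTGG. Promoters of Cd40, Cd74, Cd86, Ciita, H2-Ab1, Nlrc5, Tap2, H2-K2 and H2-Q5 were not used here.

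Before any comparison, the labels were read against marker genes. Summed CPM (read counts scaled to a common library size, with TMM factors over all 31 libraries) of 14 hepatocyte markers was 5287 to 125800 in hepatocyte libraries and 243.5 to 4400 in stellate-labelled libraries. Markers of stellate cells went against the label: their sum was 231.1 to 1844 CPM in hepatocyte libraries and 92.83 to 632.9 in stellate-labelled ones, and 11 of 12 were called lower in the latter. Mean Des was 54.5 CPM in hepatocyte against 5.96 in stellate-labelled libraries, and mean Lrat was 38.8 against 10.2. B and plasma cell markers ran the other way, with 9 of 9 called higher in stellate-labelled libraries (sums 1352 to 6076 CPM, against 424.4 to 5282), and 8 of 10 dendritic cell and 7 of 11 monocyte and macrophage markers were called higher there. Of the 10 Kupffer cell markers 1 was called lower. Markers of immune cells that carry MHC class II were thus present in both preparations, and the libraries labelled as stellate cells are called stellate-labelled throughout. In bulk RNA, fewer cells of a type and less RNA per cell cannot be told apart.

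**Figure D1:**
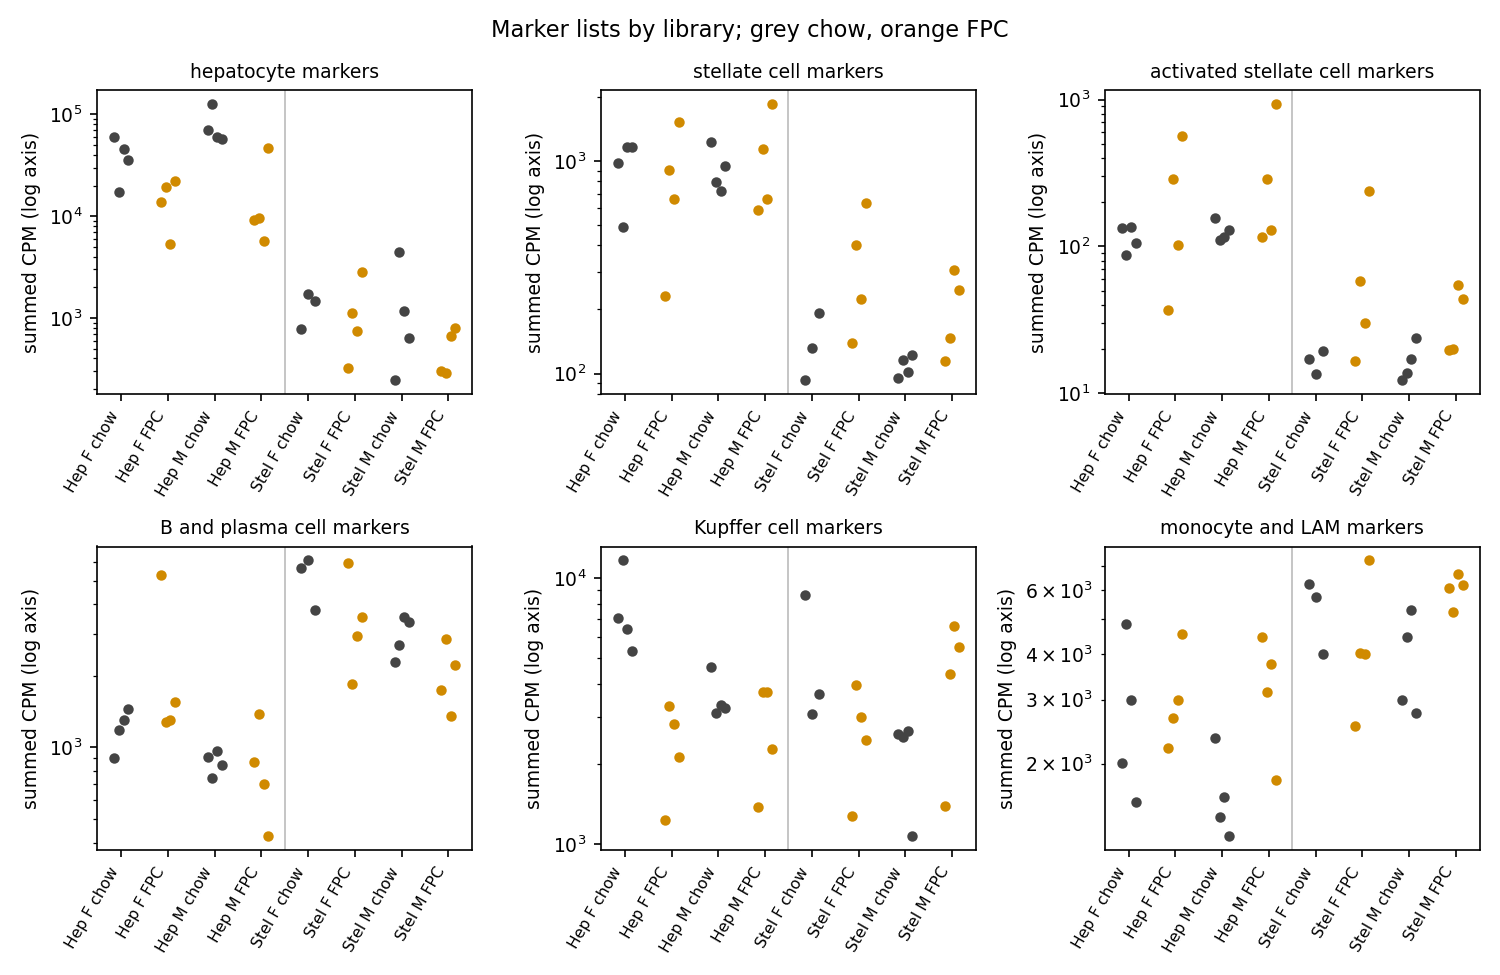
Summed CPM of 6 marker lists (y axis, log scale) in each of the 31 libraries (points), grouped by preparation, sex and diet. Stellate cell markers lie at 92.83 to 632.9 CPM in the stellate-labelled libraries and at 231.1 to 1844 in the hepatocyte libraries, while B and plasma cell markers are higher in the stellate-labelled libraries (9 of 9 called).

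Library totals ran from 3442266 to 40258392 counts, and the 57 genes took 0.07239% to 4.071% of them. Here 4 libraries stood apart. In hepatocyte male FPC replicate 4 the ribosomal RNA gene Rn45s took 84.29% of counts, with 27259308 counts in all, against at most 3.219% elsewhere. Female FPC replicate 1 of both preparations had high B cell and neutrophil markers, and stellate-labelled female FPC replicate 4 had the highest share of these genes. Values without them are given for some genes below, and the calls without them are counted in the closing section. A gene without such a value can also change when they are left out.

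Levels per kilobase of exon, which allow genes to be compared, were led by the same few genes in both preparations. In hepatocyte libraries, B2m had 2591 ± 617.6 CPM per kilobase (SD, n = 16) and Cd74 had 2530 ± 969.5, which differ by less than either spread. H2-Eb1 (635.8 ± 252.3), H2-K1 (612.3 ± 129.2) and H2-Ab1 (579.4 ± 225.8) followed, also within one another's spread, and then H2-Aa (420.3 ± 144.7), H2-D1 (293.9 ± 94.79) and H2-Q10 (185.5 ± 125.4). In stellate-labelled libraries Cd74 stood at 2826 ± 1173 (SD, n = 15) and B2m at 2500 ± 524.8, ahead of H2-Eb1, H2-K1, H2-Ab1 and H2-Aa. The level of the class II invariant chain in libraries labelled hepatocyte stood beside Kupffer cell marker sums of 1234 to 11650 CPM there, and the part of those cells in that level was not tested.

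Between preparations, edgeR's quasi-likelihood test (stellate-labelled minus hepatocyte, averaged over the 4 combinations of sex and diet, Benjamini-Hochberg adjusted p under 0.05 over 15754 genes) called 27 of the 43 genes, or 62.8%, against 64.7% of all genes, so the share called was that of any gene. The direction was less even: 25 were called higher in stellate-labelled libraries (58.1%, against 35.5% of all genes) and 2 lower (4.65%, against 29.2%). The median log2 difference of the 43 genes was 0.51, beside 0.14 for all genes tested, so the values below sit on a general shift of that size. Of the 25 called higher, 22 had a positive difference in each of the 4 combinations of sex and diet, the exceptions being Cd86, H2-Q2 and H2-T3. Leaving out the 4 libraries that stood apart gave 24 calls. With offsets for GC content and transcript length, 35 of 43 genes were called, 34 of them higher, with a median of 0.90 beside 0.31 for all genes. The shares of all genes called under these settings are not given here, so the 24 and 35 calls have no background beside them. The B cell, dendritic cell and monocyte markers given above moved the same way as these genes, and their part in these differences was not tested.

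**Figure D2:**
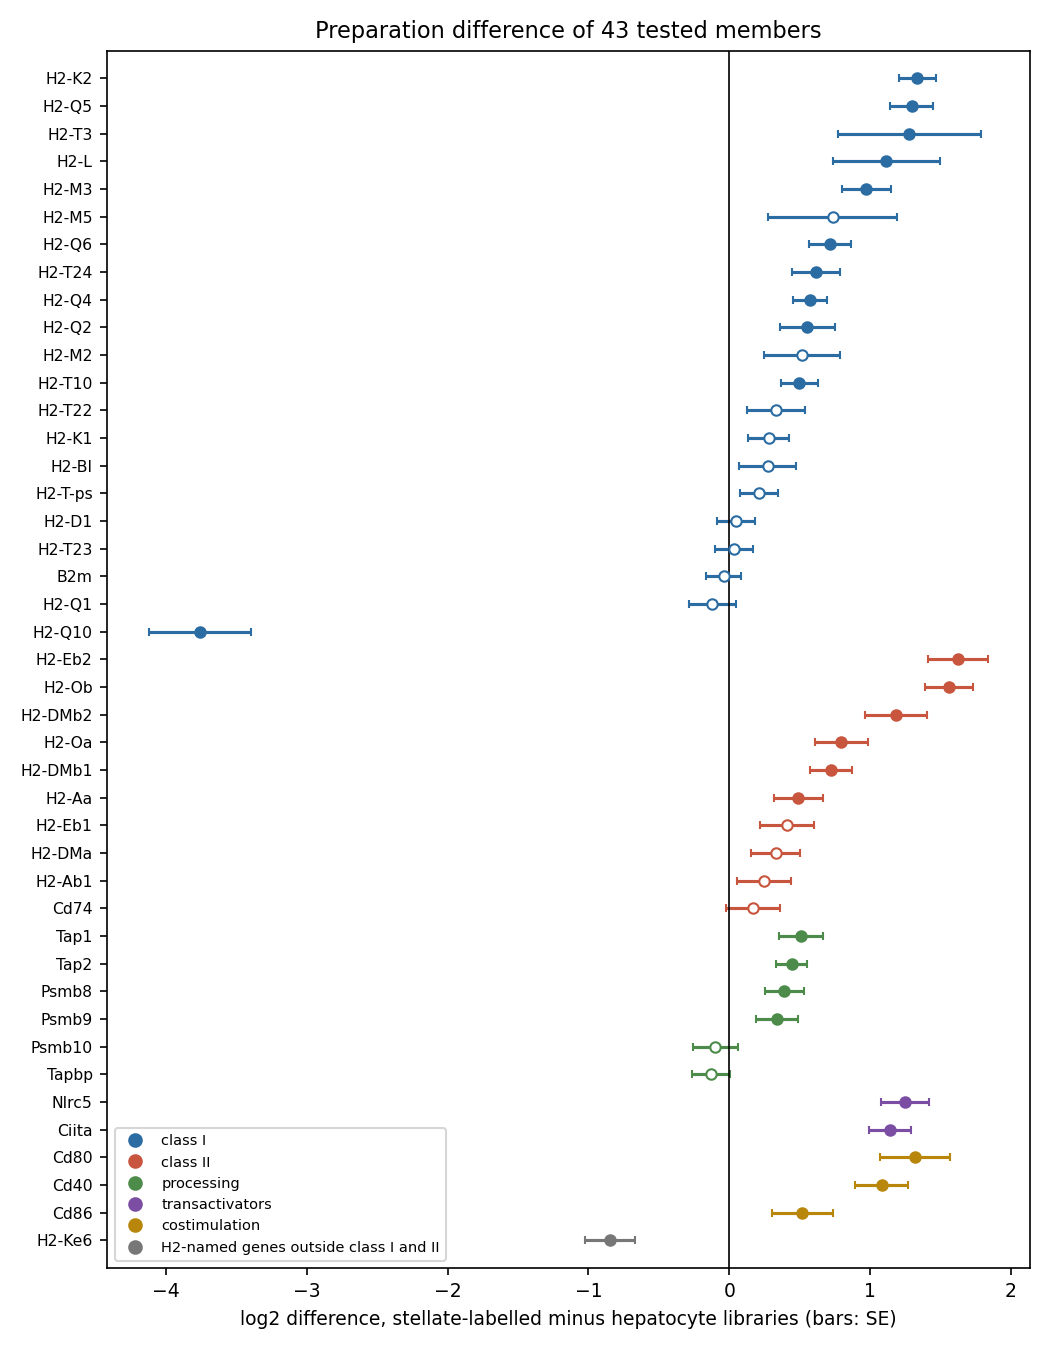
Log2 difference (x axis, stellate-labelled minus hepatocyte libraries) of each of the 43 tested genes, with bars for the standard error, grouped by role; filled points passed an adjusted p of 0.05. H2-Q10 at -3.76 lies far to the left of the others, and the class II editing genes, both transactivators and all 3 costimulatory genes lie to the right.

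H2-Q10 encodes a secreted class I heavy chain made by the liver and found in serum. Its CPM was 169, 740.8 and 1820 (lowest, median and highest) in hepatocyte libraries and 21.41, 49.61 and 126.7 in stellate-labelled libraries. The ranges did not overlap, which held for 2.56% of all genes in that direction. The gene was lower by 3.76 ± 0.36 (log2, SE, adjusted p = 2.58e-09, edgeR) in stellate-labelled libraries, a 13.5-fold difference. About 19.7% of its 50-base windows are shared with other transcripts, so part of its count depends on how shared reads were assigned.

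H2-K1, H2-D1 and B2m did not pass this test. H2-K1 had 1224, 1825 and 2551 CPM (lowest, median, highest) in hepatocyte libraries and 1590, 1915 and 3876 in stellate-labelled ones, a log2 difference of 0.28 with a 95% interval from -0.02 to 0.58. H2-D1 had a log2 difference of 0.05 (interval -0.23 to 0.32) and B2m of -0.04 (interval -0.30 to 0.22). These 3 genes overlapped widely between preparations, and the intervals leave room for differences of about the size of the general shift. H2-K1 was called higher in 4 of the 31 fits that left out 1 library (hepatocyte female chow replicate 2, female FPC replicate 2 or male chow replicate 1, or stellate-labelled female chow replicate 4). With GC and length offsets, H2-K1 (0.80, adjusted p = 0.00115) and H2-D1 (0.58, adjusted p = 0.0115) were called higher in edgeR and B2m (-0.05) was not. H2-L, the remaining classical symbol, has no gene model in GENCODE M21, and the origin of its 417 counts is uncertain. Its mean was 0.34 CPM in hepatocyte and 0.77 in stellate-labelled libraries. Counts under this symbol were higher by 1.12 ± 0.38 in stellate-labelled libraries (adjusted p = 0.0127, edgeR).

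Among the other class I genes, 9 were called higher and 1, H2-Q10, lower. H2-K2, the transcribed pseudogene beside H2-K1, had 7.242, 20.92 and 34.48 CPM in hepatocyte and 39.76, 48.81 and 67.5 in stellate-labelled libraries. No library of one preparation reached into the range of the other, which was so for 0.222% of all genes in that direction, and its log2 difference was 1.33 ± 0.13 (adjusted p = 4.06e-09, edgeR). H2-Q5 (1.30 ± 0.15) and H2-M3 (0.97 ± 0.18), which presents formylated peptides, were next. H2-T3 (1.28 ± 0.51) had means of only 0.22 and 0.38 CPM and lost its call without hepatocyte male chow replicate 3 or stellate-labelled female chow replicate 2. In 3 of the 31 fits that left out 1 library (stellate-labelled female FPC replicate 1 or 2, or male FPC replicate 4) its counts were too low for it to be tested. H2-Q6 (0.71 ± 0.15), H2-T24 (0.62), H2-Q4 (0.57 ± 0.12), H2-Q2 (0.55) and H2-T10 (0.50) were also called higher. H2-T23, the Qa-1 molecule that is read by NK cell receptors, had medians of 431.8 CPM in hepatocyte and 399.4 in stellate-labelled libraries and a log2 difference of 0.03 (adjusted p = 0.836, edgeR). With GC and length offsets H2-T23 was called higher (0.45, adjusted p = 0.0368, edgeR). Several of these genes share sequence: 35.8% of the 50-base windows of H2-T22, 35.4% of H2-Q5, 32% of H2-Q6, 31.6% of H2-T10, 22% of H2-Q4 and 10.9% of H2-K2 occur in another transcript, so the split of reads among them is uncertain. For H2-Q2 (8.74%), H2-T24 (3.23%), H2-T3 (1.24%) and H2-M3 (0.576%) the share was lower.

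In class II, 2 of 4 surface dimer genes and 4 of 6 loading and editing genes were called higher. H2-Eb2 is a minor beta chain gene and had 3.983, 14.89 and 32.92 CPM in hepatocyte and 29.04, 48.15 and 66.17 in stellate-labelled libraries. It rose by 1.62 ± 0.21 (adjusted p = 4.47e-07, edgeR). H2-Aa, the I-A alpha chain, rose by 0.49 ± 0.18 (adjusted p = 0.0173, edgeR), which no longer passed without the 4 libraries (0.29) or with offsets for GC content and length. H2-Eb1 (0.41, adjusted p = 0.0642), H2-Ab1 (0.24, adjusted p = 0.263) and Cd74 (0.17, adjusted p = 0.445) did not pass in edgeR. With GC and length offsets these 3 were called higher, at 0.91, 0.94 and 0.82. H2-Eb1 was also called with the replicate block (0.49, adjusted p = 0.00748, edgeR) and in 9 of the 31 fits that left out 1 library. Without the 4 libraries H2-Eb1 had 0.16, H2-Ab1 0.00 and Cd74 -0.06, and none of them was called. Cd74 had 2075, 4008 and 7438 CPM in hepatocyte and 2727, 4067 and 11190 in stellate-labelled libraries, nearly equal medians.

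H2-Ob and H2-Oa encode H2-DO, the B cell-enriched inhibitor of the peptide editor H2-DM. H2-Ob had 30.11, 73.48 and 252.6 CPM in hepatocyte and 150, 253.1 and 347.9 in stellate-labelled libraries and rose by 1.56 ± 0.17 (adjusted p = 2.07e-08, edgeR). H2-Oa rose by 0.80 ± 0.19. Of the H2-DM chains, H2-DMb2 rose by 1.18 ± 0.22 and H2-DMb1 by 0.72 ± 0.15, while H2-DMa had 0.33 (adjusted p = 0.0987, edgeR). H2-DMa was called with the replicate block (0.39, adjusted p = 0.016, edgeR) and with GC and length offsets (0.86). About 29.5% of the 50-base windows of H2-DMb2 and 27.2% of H2-DMb1 are shared, mostly with each other. The split of reads between these 2 genes is thus uncertain, here and in the sex differences below. The highest hepatocyte value of H2-Ob lay close to the stellate-labelled median, so the ranges overlapped. On the scale of the hepatocyte libraries alone, female FPC replicate 1 had 211.8 CPM of H2-Ob and 442.5 of H2-DMb2. B and plasma cell markers, all 9 called higher with a median log2 difference of 1.69, moved with these genes, and their part in the result was not tested.

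Both transactivators were called higher. Nlrc5 had 27.88, 79.38 and 217.8 CPM in hepatocyte and 115.2, 193.1 and 336.8 in stellate-labelled libraries and rose by 1.25 ± 0.17 (adjusted p = 8.33e-07, edgeR). Ciita had 48.32, 101.2 and 239.6 CPM against 154.7, 213.2 and 386.9 and rose by 1.14 ± 0.15 (adjusted p = 3.36e-07, edgeR). The ranges of both genes overlapped between preparations. Within sex and diet, the Nlrc5 difference was 1.14 in females on chow, 0.68 in females on FPC, 2.51 in males on chow and 0.66 in males on FPC.

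Of the 6 processing genes, 4 were called higher. They were Tap1 (0.51 ± 0.15), Tap2 (0.44 ± 0.11), Psmb8 (0.39 ± 0.14) and Psmb9 (0.34 ± 0.15, adjusted p = 0.0498 in edgeR). Psmb9 lost its call with DESeq2 and in 13 of the 31 fits that left out 1 library. Without the 4 libraries neither Psmb8 (0.22) nor Psmb9 (0.18) passed. Tapbp (-0.13) and Psmb10 (-0.10) did not pass. All 3 costimulatory genes, which antigen-presenting cells use to signal to T cells, were called higher: Cd80 by 1.32 ± 0.25, Cd40 by 1.08 ± 0.19 and Cd86 by 0.52 ± 0.21 (adjusted p = 0.0365, edgeR). Cd86 lost its call in 7 of those 31 fits and with GC and length offsets (0.44, adjusted p = 0.0928, edgeR). H2-Ke6 fell by 0.84 ± 0.18, but 96.3% of its 50-base windows are shared with an overlapping gene model, and with GC and length offsets the difference was 0.00.

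Around these genes, fixed lists of the pathway were read in the same comparison, where 35.5% of all genes were called higher and 29.2% lower. In the promoter complex of the X and Y boxes, 6 of 9 genes were called higher, among them Rfx5 (0.85), Nfya (0.74) and Crebbp (0.88). Of the co-receptors and checkpoints 9 of 12 were called higher, among them Icosl (1.5) and Tnfrsf14 (0.98). Of the interferon gamma signalling genes 8 of 18 were called higher and 1 lower. Class I loading and trimming gave 3 higher and 1 lower of 12, with the chaperone gene Calr at -0.69, and class II processing gave 4 higher and 2 lower of 12, with the protease gene Ctsl at -0.83 and the ubiquitin ligase gene Marchf1 at 1.58.

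Next came diet. No gene of the 57 passed edgeR's test for the diet effect in either sex or preparation. In hepatocyte libraries the test called 0.249% of 14430 genes in females and 0.437% in males, and in stellate-labelled libraries 0% of 15430 in each sex. At an unadjusted p under 0.05 there were 6 of the 40 genes in female hepatocyte libraries (15%, against 16.2% of all genes) and 8 in male ones (20%, against 24.7%). In stellate-labelled libraries there were 2 of the 44 in females (4.55%, against 10.1%) and 4 in males (9.09%, against 5.68%). DESeq2 called 6 of 40 in male hepatocyte libraries (15%, against 9% of all genes), 1 of 44 in male stellate-labelled libraries (2.27%, against 0.428%), and none in females, where it called 4.43% of all genes in hepatocyte and 1.73% in stellate-labelled libraries. On simulated counts with the male hepatocyte design, 4.1% of genes changed by 1 on the log2 scale were recovered and 43.9% of those changed by 2.

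In male hepatocyte libraries, the class I transactivator and class I genes of low abundance, pseudogenes among them, had the highest diet differences. Nlrc5 had 51.3, 23.49, 34.65 and 26.69 CPM in the 4 male chow libraries and 125.9, 92.92, 139.5 and 76.37 in the 4 male FPC libraries. Every FPC library was above every chow library. The log2 difference was 1.68 ± 0.38 (95% interval 0.88 to 2.49), with an adjusted p of 0.0639 in edgeR. Without FPC replicate 4, the library dominated by ribosomal RNA, it was 1.87 with an adjusted p of 0.0105 in edgeR. That fit called 9.9% of all genes, beside 0.437% in the main fit.

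H2-K2, H2-Q5, H2-Q2 and H2-M2, chosen here after their values were seen, were the other genes of the set whose male hepatocyte libraries did not overlap. These 5 are 12.5% of the 40 genes, and 17.2% of all genes did not overlap in either direction. By direction, 5 of the 40 were higher, against 6.14% of all genes, and 0 were lower, against 11.1%. H2-K2 had 16.64, 6.101, 9.826 and 6.986 CPM on chow and 25.92, 21.07, 27.82 and 22.17 on FPC, a difference of 1.31 ± 0.31 (adjusted p = 0.0685, edgeR). H2-Q5 had 33.29, 18.61, 21.82 and 16.07 CPM on chow and 50.53, 49.27, 69.15 and 36.96 on FPC, a difference of 1.21 ± 0.33 (adjusted p = 0.0883, edgeR). All FPC libraries of both genes lay above all chow libraries. Chow replicate 1 was the highest chow library for Nlrc5, H2-K2 and H2-Q5.

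Ciita had 75.58, 45.45, 47.09 and 40.1 CPM on chow and 113.4, 114, 104.6 and 62.21 on FPC in male hepatocyte libraries. FPC replicate 4 lay below chow replicate 1, so the groups overlapped, and the difference was 0.93 ± 0.34 (adjusted p = 0.126, edgeR). The classical chains and their processing genes had values near 0 in the same comparison. H2-K1 had 2098, 1648, 1014 and 1059 CPM on chow and 1175, 1483, 1506 and 1349 on FPC, with a log2 difference of -0.08 (interval -0.75 to 0.60). B2m had -0.27, Psmb8 -0.11 and H2-Aa -0.02. Class I as a whole had 13 of 18 genes above 0 with a median of 0.37, class II 4 of 10 with a median of -0.04, and all genes tested a median of 0.08.

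**Figure D3:**
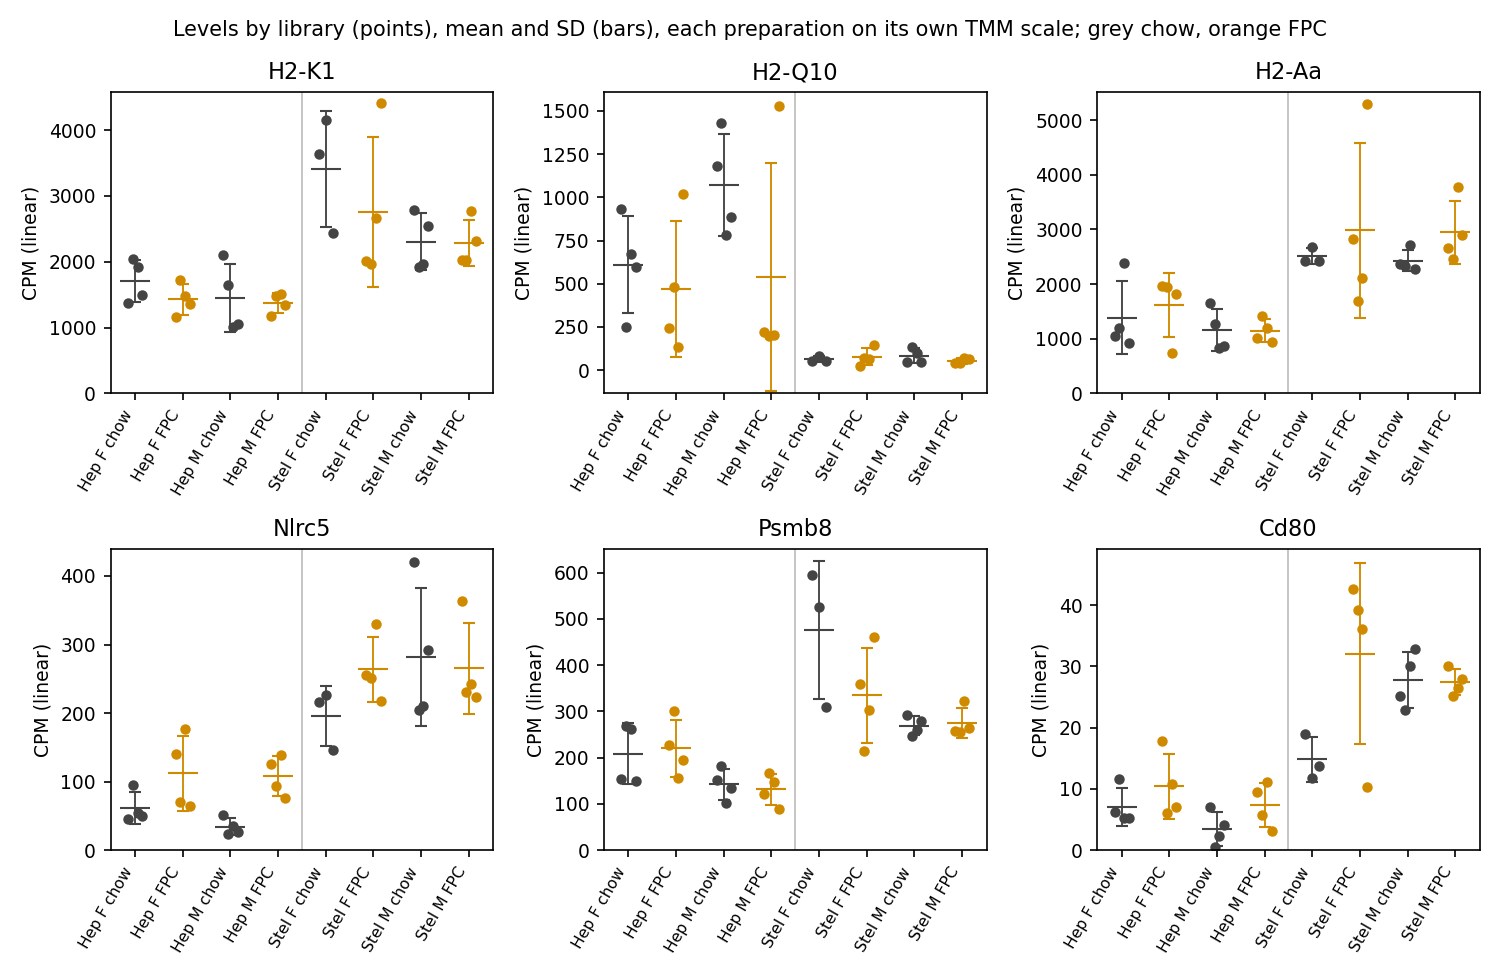
CPM (y axis, linear) of 6 genes in each library (points), by preparation, sex and diet, with the mean and SD of each group; each preparation is scaled on its own. Nlrc5 is above its male chow range in all 4 male FPC hepatocyte libraries, H2-K1 overlaps between diets, and 1 male FPC hepatocyte library holds H2-Q10 at 1526 CPM beside 3 near 200.

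Cell type markers differed by diet in the same male hepatocyte libraries. Monocyte and lipid-associated macrophage markers had positive differences in 11 of 11 (2 called, median 1.27, sums of 1048 to 2007 CPM on chow and 1509 to 3605 on FPC). Hepatocyte markers had negative differences in 14 of 14 (1 called, median -2.0, sums of 47990 to 105900 CPM on chow and 4629 to 39230 on FPC). Activated stellate cell markers were above 0 in 8 of 8 (median 1.57) and dendritic cell markers in 8 of 10 (0.89). Kupffer cell markers were below 0 in 10 of 10 (1 called, median -0.57) and endothelial markers in 13 of 14 (-1.07). B and plasma cell markers had a median of -0.11. The part of these markers in the Nlrc5 and class I values was not tested.

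H2-Q10 was read beside the hepatocyte markers of the same male hepatocyte libraries. The gene had 1181, 1432, 784.5 and 885.4 CPM on chow and 222.9, 197.5, 203.1 and 1526 on FPC. FPC replicate 4 was the highest of the 8 libraries and the other 3 FPC libraries were the lowest. Hepatocyte marker sums in those FPC libraries were 7435, 7746, 4629 and 39230 CPM, so replicate 4 was also the FPC library with the most hepatocyte RNA by these markers. Its sum was still below that of every male chow library (47990 to 105900 CPM), while its H2-Q10 value was above all of them. The relation of H2-Q10 to these markers was not tested. The diet difference was -1.0 ± 0.69 (adjusted p = 0.366, edgeR). Without the 4 libraries H2-Q10 was called lower, in a fit that called 12.7% of all genes.

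In female hepatocyte libraries the diets overlapped for Nlrc5. Its CPM was 45.77, 95.37, 53.72 and 49.39 on chow and 139.6, 70.02, 176.2 and 63.73 on FPC. FPC replicates 2 and 4 lay below chow replicate 2, and the difference was 0.88 ± 0.37 (adjusted p = 0.261, edgeR). The male and female Nlrc5 effects differed by 0.80 ± 0.52 in the interaction test (adjusted p = 0.978, edgeR). H2-T23 had 511.2, 689.7, 709.6 and 386.3 CPM on chow and 241.3, 320.6, 317.8 and 407 on FPC in females, where only FPC replicate 4 overlapped chow. Its difference was -0.84 ± 0.30 (adjusted p = 0.193, edgeR). H2-K1 had -0.26 (interval -0.93 to 0.41) and Cd74 0.15 (adjusted p = 0.885, edgeR). One gene of the 40, H2-Bl, did not overlap between diets and was lower on FPC (2.5%, against 5.57% of all genes), and is named after its values were seen. In this comparison Kupffer cell markers were below 0 in 10 of 10 (1 called, median -1.53), endothelial markers in 14 of 14 (-1.02) and hepatocyte markers in 12 of 14 (-1.44). Neutrophil markers were above 0 in 10 of 10 (2.65), monocyte and macrophage markers in 10 of 11 (1.17) and B and plasma cell markers in 7 of 9 (1.08). FPC replicate 1, with the second highest Nlrc5 value, is one of the libraries that stood apart, and the part of the markers was not tested.

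In stellate-labelled libraries, Cd80, a ligand of CD28 on T cells, had the widest diet difference of the genes named in females. It had 18.89, 11.75 and 13.79 CPM on chow and 42.7, 39.23, 36.16 and 10.26 on FPC. Here 3 FPC libraries lay above all chow libraries and replicate 4 lay below them. The difference was 1.12 ± 0.37 (adjusted p = 0.384, edgeR). Cd80 was called without that replicate, in a fit that called 6.24% of all genes. In the same libraries H2-Aa had 2832, 1700, 2115 and 5286 CPM on FPC, with replicate 4 the highest, where Cd74 reached 12720 CPM. Activated stellate cell markers had a median log2 difference of 2.59, neutrophil markers of 1.98 and stellate cell markers of 1.27 in this comparison. Monocyte and macrophage markers (0.112) and B and plasma cell markers (0.15) had medians nearer 0. Kupffer cell markers were below 0 in 10 of 10 (-0.83) and T and NK cell markers in 10 of 11 (-0.972). Endothelial markers were below 0 in 14 of 14 (-0.514) and dendritic cell markers in 7 of 10 (-0.142). The part of these markers was not tested.

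Male stellate-labelled libraries gave 3 of 44 genes without overlap between diets, or 6.82%, against 9.56% of all genes. B2m was one of them, with 2380, 1906, 2145 and 2057 CPM on chow and 2459, 2848, 3315 and 2624 on FPC. The difference was 0.41 ± 0.18 (adjusted p = 0.835, edgeR). Cd86, which like Cd80 binds CD28, had 71.26, 64.85, 72.44 and 50.73 CPM on chow and 70, 118.2, 125.9 and 112.7 on FPC, with FPC replicate 1 inside the chow range, and a difference of 0.72 ± 0.32 (adjusted p = 0.835, edgeR). H2-M2, chosen after its values were seen, had 7.146, 5.235, 3.935 and 9.775 CPM on chow and 15.74, 22.62, 14.33 and 23.71 on FPC. Its difference was 1.55 ± 0.37 (adjusted p = 0.403, edgeR), and DESeq2 called it. In these male libraries activated stellate cell markers were above 0 in 8 of 8 (median 1.25), stellate cell markers in 11 of 12 (1.08), Kupffer cell markers in 8 of 10 (0.89) and monocyte and macrophage markers in 10 of 11 (0.79). B and plasma cell markers were below 0 in 9 of 9 (-0.62) and hepatocyte markers in 12 of 13 (-1.43). None was called, and their part was not tested.

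**Figure D4:**
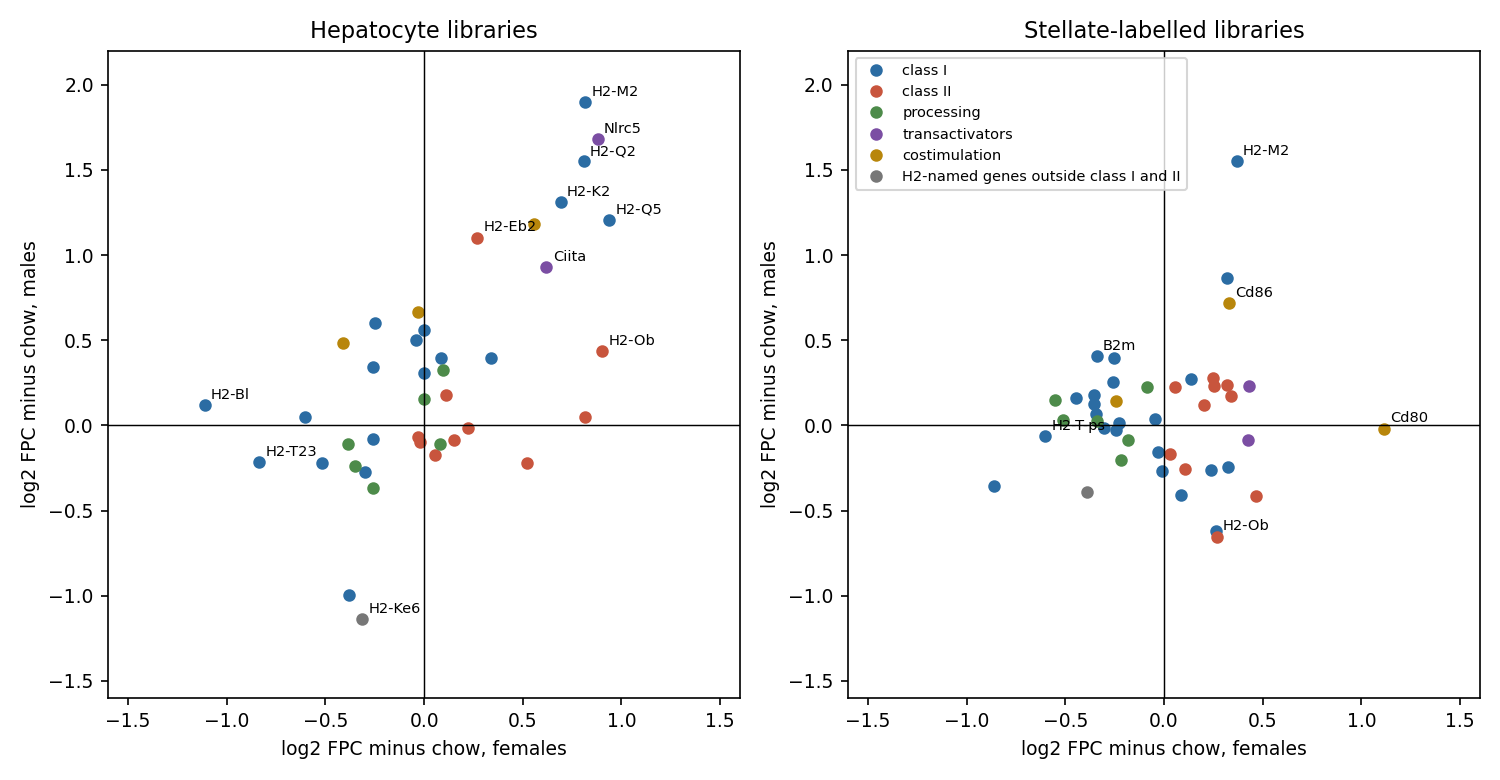
Log2 diet difference (FPC minus chow) of each tested gene in females (x axis) and males (y axis), for hepatocyte libraries (left) and stellate-labelled libraries (right), coloured by role; labels mark genes with an unadjusted p under 0.05 in a sex. No point passed the adjusted threshold, and in hepatocyte libraries Nlrc5 lies at 0.88 in females and 1.68 in males.

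The diet effect of males minus that of females was tested as an interaction. No gene of the 57 passed in either preparation, and edgeR called 0% of all genes in each. At an unadjusted p under 0.05 there were 0 of 40 genes in hepatocyte (4.19% of all genes) and 5 of 44 in stellate-labelled libraries (11.4%, against 8.69%), and DESeq2 called none of them in either. The stellate-labelled values with the smallest p were 0.75 ± 0.26 for B2m (adjusted p = 0.548, edgeR), -0.92 for H2-Ob and -1.14 for Cd80.

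For sex, no gene of the 57 passed edgeR's test on either diet. The background was 0.43% of genes on chow and 0.333% on FPC in hepatocyte libraries, and 0.0518% and 0.0583% in stellate-labelled libraries. In hepatocyte libraries 5 of 40 genes on chow (12.5%, against 5.98% of all genes) and 6 on FPC (15%, against 11.4%) had an unadjusted p under 0.05. In stellate-labelled libraries there were 11 of 44 on chow (25%, against 29.5%) and 4 on FPC (9.09%, against 10%). DESeq2 called none on chow and 1 (H2-Oa) on FPC in hepatocyte libraries (1.05% and 1.24% of all genes). In stellate-labelled libraries it called 7 of 44 on chow, or 15.9%, the same share as of all genes, and none on FPC (0.94% of all genes).

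On chow, 38 of the 40 genes had a negative male minus female difference in hepatocyte libraries, with a median of -0.55, beside 7435 of 14430 genes and a median of -0.01 overall. The exceptions were H2-Q10 (0.81) and H2-Ke6 (0.31). Tap1, a peptide transporter chain, had 139, 276.2, 235.3 and 101.8 CPM in females and 133.2, 119.7, 91.43 and 82.15 in males. Female replicates 1 to 3 were above all males and female replicate 4 was within the male range. The difference was -0.82 ± 0.33 (adjusted p = 0.724, edgeR). Cd40 had -0.91, Cd86 had -1.04 and Nlrc5 had -0.85, none of which passed.

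Most immune cell markers had the same sign in those libraries, though dendritic cell markers were mixed, with 6 of 10 below 0 (median -0.283). Kupffer cell markers were below 0 in 10 of 10 (median -1.02), T and NK cell markers in 11 of 11, neutrophil markers in 9 of 10 and B and plasma cell markers in 8 of 9 (median -0.56). Hepatocyte markers were above 0 in 13 of 14 (median 0.94). None of these markers was called. Their part in the lower male values of the 38 genes was not tested.

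On FPC, 30 of the 40 genes were below 0 in hepatocyte libraries with a median of -0.24, and class II editing genes had the lowest values. H2-DMb2 had 442.5, 116, 77.73 and 139.3 CPM in females and 60.04, 107, 77.5 and 38.19 in males, with female replicate 1 far above the rest. The difference was -1.45 ± 0.47 (adjusted p = 0.32, edgeR), -0.62 without female replicate 1 and -0.44 without the 4 libraries. H2-Oa, chosen after its values were seen, had 59.38, 49.55, 18.09 and 61.55 CPM in females and 12.07, 27.01, 15.47 and 12.32 in males, where female replicate 3 lay inside the male range. Its difference was -1.48 ± 0.39 (adjusted p = 0.189, edgeR). One gene, Psmb9, was lower in males without overlap (2.5%, against 2.58% of all genes). B and plasma cell markers had a median of -1.6 and neutrophil markers of -4.16 (6 called lower) in this comparison. T and NK cell markers were also below 0, in 11 of 11 (median -0.75). The remaining immune lists went the other way. Dendritic cell markers were above 0 in 8 of 10 (median 0.498), Kupffer cell markers in 8 of 10 (0.248) and monocyte and macrophage markers in 7 of 11 (0.235). The part of these markers was not tested.

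In stellate-labelled libraries on chow, Psmb8 and B2m had lower values in every male than in every female library. Of the 44 genes, 12 did not overlap between sexes (27.3%), against 38.9% of all genes, with 3 females and 4 males. Psmb8, an immunoproteasome subunit, had 593.6, 525.4 and 308.8 CPM in females and 293.1, 245.8, 259.8 and 278.4 in males, a difference of -0.82 ± 0.26 (adjusted p = 0.0913, edgeR). B2m had 3487, 3465 and 2614 CPM in females and 2380, 1906, 2145 and 2057 in males, a difference of -0.59 ± 0.19 (adjusted p = 0.0946, edgeR). Female replicate 4 was the female library nearest to the males for both genes. H2-D1 had -0.65 (adjusted p = 0.11) and Cd80 0.91 (adjusted p = 0.129) in edgeR. Kupffer cell markers were below 0 in 10 of 10 (median -0.87) and T and NK cell markers in 10 of 11, while dendritic cell markers were above 0 in 6 of 10 (0.335). Without female chow replicate 4, 8 of the genes were called (18.2%, against 19.1% of all genes). With GC and length offsets the median of the 44 genes changed sign, from -0.19 to 0.15, and 18 of the 44 genes changed sign.

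**Figure D5:**
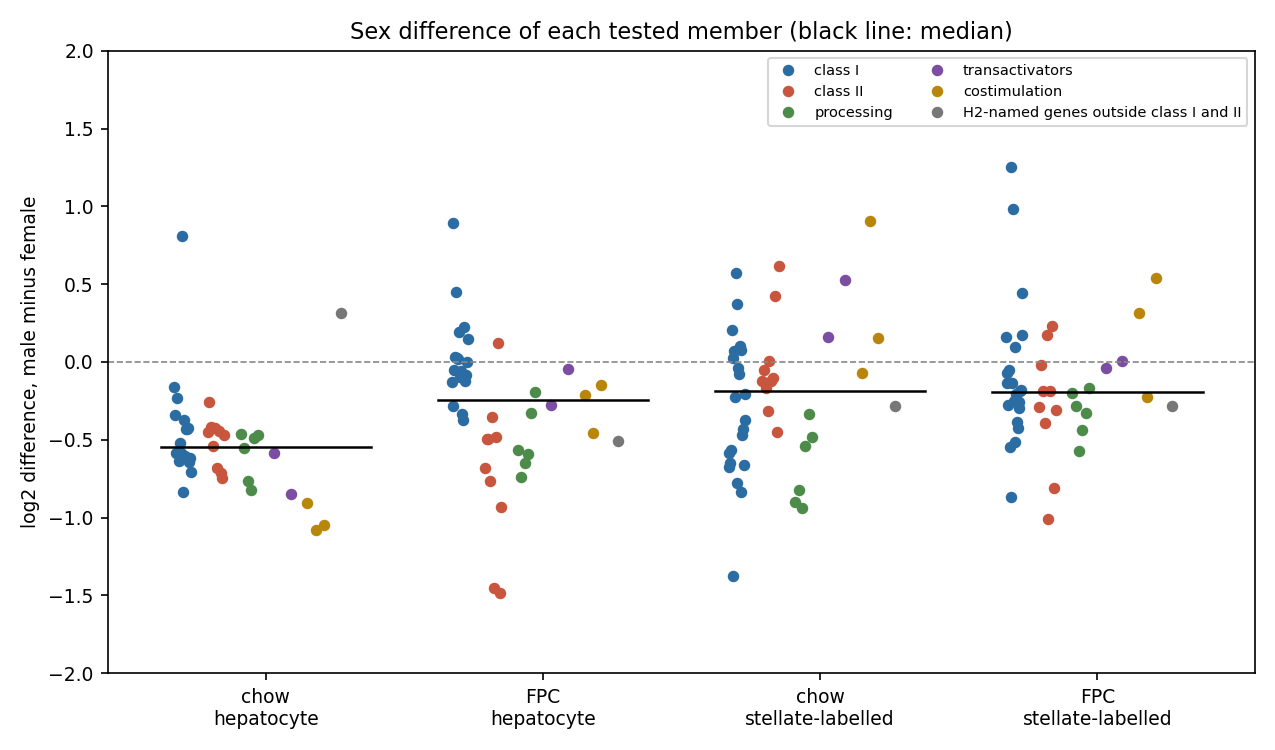
Log2 difference, male minus female (y axis), of each tested gene (points, coloured by role) on chow and FPC in hepatocyte and stellate-labelled libraries, with a black line at the median. On chow in hepatocyte libraries 38 of 40 points lie below 0, and no point in the plot passed the adjusted threshold.

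On FPC in stellate-labelled libraries the sexes overlapped for all but 1 of the 44 genes, H2-M2, with higher values in males, and 4.52% of all genes did not overlap. Its difference was 1.25 ± 0.37 (adjusted p = 0.39, edgeR). H2-DMb2 had -1.01 (adjusted p = 0.432, edgeR), with 794.3 CPM in female FPC replicate 1 on the scale of this preparation, -0.66 without that library and 0.00 without the 4 libraries. The median of the 44 genes was -0.19, and it was 0.05 with GC and length offsets and 0.04 without the 4 libraries. Neutrophil markers were below 0 in 10 of 10 (median -2.56) and B and plasma cell markers in 7 of 9 (-1.01) in this comparison. Kupffer cell markers were above 0 in 9 of 10 (0.74), monocyte and macrophage markers in 10 of 11 (0.538) and dendritic cell markers in 8 of 10 (0.638). The part of these markers was not tested. The pathway lists around these genes, on class I loading, class II processing, the promoter complex, interferon gamma signalling and co-receptors, held no called gene in any comparison of diet, sex or their interaction.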

How the data were processed

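The authors deposited raw read counts per gene for 31 bulk RNA-seq libraries. Per the submitters' processing notes, STAR and featureCounts were used with build mm10; their versions, the annotation and whether strand was used are not stated there, so reads of overlapping or near-identical genes may have been split among them. Per the labels' protocols, RNA was amplified before library construction, and totals were 3442266 to 40258392 counts. Every column of the count table was mapped to a sample by its title.

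From these counts, edgeR 4.0.16 (R 4.3.3) was run with its low-count filter (minimum count 10, by group), TMM scaling and the quasi-likelihood test, two-sided, with Benjamini-Hochberg adjustment over all genes tested and a threshold of 0.05. Diet (FPC minus chow), sex (male minus female) and their interaction were fitted within each preparation, and the preparation difference over all 31 libraries. DESeq2 1.42.0 was an alternative. CPM are computed from the counts with those TMM factors, within a preparation or, where preparations are compared, over all libraries. The test was checked on simulated counts with 200 changed genes, in the male diet comparison of each preparation.

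The members, pathway lists and marker lists were chosen with earlier results of these data known. Genes were named if called, if among up to 4 members of a role with the highest mean CPM, or if on a fixed list of 14 (H2-K1, H2-D1, B2m, H2-Aa, H2-Ab1, H2-Eb1, Cd74, Ciita, Nlrc5, Tap1, Psmb8, Cd40, Cd80 and Cd86), plus up to 3 per pathway list with the smallest p. Groups share replicate numbers, but the labels do not say that a number marks an animal or batch. Same-numbered libraries deviated together (every correlation over 0.1) between sexes on FPC in hepatocyte libraries (r = 0.265 to 0.642) and between preparations in males on chow (0.142 to 0.388). Between preparations on FPC the values were mixed and included the highest. For numbers 1 to 4 they were 0.83, -0.44, 0.818 and 0.421 in females and 0.521, -0.224, -0.36 and 0.408 in males. The main preparation test did not pair libraries. P-values measure the spread between mice of a group as the design describes them. Promoters came from RefSeq's table (GRCm38.p6) and exon lengths and GC content from GENCODE M21. Figures were drawn with matplotlib 3.10.9.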

Additional observations from a re-analysis of the deposited data

Results flagged for a closer look

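Of 140 groups of 4 libraries, 13 held a library far from the other 3 by Dixon's test at the 95% level, where chance gives about 7. Stellate-labelled female FPC replicate 4 was the highest of its group for H2-D1 (1473 CPM, the next 854.9), H2-Ab1 (4818, the next 1939) and Cd40 (70.11, the next 29.69). Hepatocyte female FPC replicate 3 was the lowest of its group for H2-Aa (748.7 CPM, the next 1818) and for summed class II CPM (3962, the next 10770), and replicate 2 of that group was the highest for B2m (2401, the next 1563). Hepatocyte female chow replicate 2 was the highest for Nlrc5 (95.37 CPM, the next 53.72), Cd80 (11.6, the next 6.178) and summed costimulatory CPM (130.5, the next 58.25). Hepatocyte male FPC replicate 4, the library in which Rn45s took 84.29% of counts, was the highest for H2-Q10 (1526 CPM, the next 222.9). In stellate-labelled males on FPC, replicate 1 was the highest for Nlrc5 (363.7 CPM, the next 242.3), and replicate 3 for Tap1 (322.8, the next 241.8) and Psmb8 (322.1, the next 265). Of 15 genes looked at, 0 moved in opposite directions in the sexes without overlap.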

How the results depend on the processing

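The preparation count of 27 stayed within 1.5 times under all alternatives run. It was 26 with DESeq2 or its size factors, 27 with no filter on low counts, 35 with GC and length offsets and 29 with the replicate block. It was 24 without the 4 libraries that stood apart (an alternative chosen after seeing the data) and 24 to 30 with each library left out. The share of all genes called under these alternatives is not given here. In male hepatocyte libraries the diet count went from 0 to 6 with DESeq2, 1 with GC and length offsets, 1 with only the 2 groups compared, 7 without the 4 libraries and 0 to 5 with each library left out, the 5 (Ciita, H2-K2, H2-Q10, H2-Q5 and Nlrc5) without FPC replicate 4 and 1 (H2-K2) without chow replicate 1. Those settings also moved the calls among all genes. They were 1298 with DESeq2 (9%), 844 with GC and length offsets (5.85%) and 131 with only the 2 groups compared (0.965%). Without the 4 libraries they were 1832 (12.7%), without FPC replicate 4 1438 (9.9%) and without chow replicate 1 37 (0.249%). In female stellate-labelled libraries the diet count was 6 without the 4 libraries (13.6%, against 19.4% of all genes). With each library left out it was 0 to 3, the 3 without FPC replicate 4 (6.82%, against 6.24% of all genes). In males it was 1 with DESeq2. The chow sex count in stellate-labelled libraries was 7 with DESeq2, 8 with only the 2 groups compared, 10 without the 4 libraries and 0 to 8 with each library left out (8 without female replicate 4), where 15.9%, 19.6%, 34% and 19.1% of all genes were called. The FPC sex count in hepatocyte libraries was 1 with DESeq2 and 0 to 1 with each library left out (1 without female replicate 3). Those settings called 1.24% and, without female replicate 3, 0.68% of all genes. Every other count of diet, sex or interaction calls remained 0. Among the tested genes, GC and length offsets turned the sign of 18 of 44 in each sex difference of stellate-labelled libraries, 10 of 40 in the male hepatocyte diet difference and 4 of 43 between preparations, and leaving out the 4 libraries turned 20 of 44 in the FPC sex difference of stellate-labelled libraries, 13 of 44 in their female diet difference and 11 of 40 in the FPC sex difference of hepatocyte libraries. Among genes with a call or an unadjusted p under 0.05, signs turned for H2-Bl in the chow sex difference of stellate-labelled libraries with GC and length offsets (0.03), for H2-Oa in the FPC sex difference there without the 4 libraries (0.08), and for H2-Ke6 between preparations with GC and length offsets (0.00). The cause of these changes was not tested. With the replicate number as a block, no diet, sex or interaction count moved from 0, and between preparations H2-Eb1 and H2-DMa were called as well, which brought the count to 29. In the simulated male diet comparison, with 4 libraries a group, changes of 1 on the log2 scale were mostly below detection. Recovery was 4.1% in hepatocyte and 8.2% in stellate-labelled libraries. Recovery in the female diet, sex and interaction comparisons was not simulated. Counts of genes under 20 CPM are few in the library dominated by Rn45s.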
